A study of Caenorhabditis elegans with 2 samples.

Results

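The tRNA genes of the X chromosome of Caenorhabditis elegans were examined for binding of CEH-44, a homeobox transcription factor of the CUT family known from the nervous system. The members were all 276 genes annotated as tRNA genes on X, out of 612 nuclear tRNA genes, and the other 336 on the autosomes served for comparison. A gene was called bound when the summit of a peak of the larger list made from both replicates lay within 250 bp of it. This choice of members used no measured value. There was 1 group, with 2 biological replicates and no second condition: whole larvae of the fourth stage, aged 49 hours and grown from starved first-stage larvae, of strain RW12327, in which the endogenous ceh-44 gene carries TY1, EGFP and 3xFLAG tags (allele st12327, made by CRISPR). Chromatin sheared to 200 to 800 bp was precipitated with an antibody against GFP and sequenced (ChIP-seq). Whole animals were used, so binding in neurons and in other cells cannot be told apart. Sex is not recorded, and a control precipitation was not analysed here.

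A tRNA gene is transcribed by RNA polymerase III from a promoter inside the gene. Its A box and B box are bound by the factor TFIIIC, which brings TFIIIB to the DNA just upstream of the start, and a run of T after the gene ends transcription. The encoded tRNAs, called isotypes by the amino acid they carry, are each made from many gene copies, and in C. elegans such copies are known to be scattered over all chromosomes and often sit in introns of coding genes.

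The following members are shown because the results turn on them. F15G9.t1 (Ala) and ZK563.t1 (Thr) lay at 2 of the strongest X peaks. C06G1.t1 (His) and T28B4.t1 (Phe) were bound while their identical copies on X were not. Of identical copies on the autosomes, 2 of 3 were bound for His and 3 of 5 for Phe. C04A11.t1 (bound) and F02D10.t3 (not bound) are a pair of long, related Leu genes. Sequences are RefSeq's, on ce11 (WBcel235), along the gene's strand. Capitals mark the 9-letter core of the B box (GTTCGANNC, near the end of the gene) where these letters occur. They also mark a single spelling of the A box core (TGGCNNAGT, near the gene's start). Other spellings of either box were not searched, so a gene without these capitals can still have an A box or a B box.
F15G9.t1: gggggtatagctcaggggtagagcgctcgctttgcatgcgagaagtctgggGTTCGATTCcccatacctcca
ZK563.t1: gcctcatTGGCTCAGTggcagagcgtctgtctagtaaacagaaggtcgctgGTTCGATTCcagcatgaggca
C06G1.t1: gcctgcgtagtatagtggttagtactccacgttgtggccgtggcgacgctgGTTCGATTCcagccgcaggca
T28B4.t1: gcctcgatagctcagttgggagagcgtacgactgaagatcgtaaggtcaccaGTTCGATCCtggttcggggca
C04A11.t1: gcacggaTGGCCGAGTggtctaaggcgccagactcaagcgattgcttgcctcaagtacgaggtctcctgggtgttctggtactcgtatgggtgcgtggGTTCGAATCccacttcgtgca
F02D10.t3: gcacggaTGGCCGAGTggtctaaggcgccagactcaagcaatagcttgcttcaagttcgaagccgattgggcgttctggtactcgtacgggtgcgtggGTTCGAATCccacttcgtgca
Their positions are chrX:9743589-9743660 (+), chrX:3371422-3371493 (-), chrX:16634830-16634901 (-), chrX:6593596-6593668 (+), chrX:13665555-13665673 (+) and chrX:13443386-13443504 (-).

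Of the 276 genes, 144 were bound (52.2%, exact 95% interval 46.1 to 58.2%), against 160 of 336 autosomal tRNA genes (47.6%, 42.2 to 53.1%). Over all 46890 nuclear genes the share with such a summit was 3.25%. Intervals are Clopper-Pearson and cover counting error only. The intervals of X and of the autosomes overlapped. The single autosomes ranged between 39.7% and 51.5%, all below X, and each of their intervals overlapped that of X. Genes are not replicates of a condition and there was 1 group, so no test was made of any of these shares. Of other short genes of X, up to 150 bp long, 102 of 2060 were bound (4.95%). On X 2 of 74 microRNA genes, 1 of 33 snoRNA genes, 0 of 3 snRNA genes and 0 of 162 piRNA genes (exact interval up to 2.25%) were bound. On the autosomes 33 of 126 snRNA genes and 69 of 313 snoRNA genes were bound, against 3 of 187 microRNA genes and 19 of 15201 piRNA genes. The autosomal snRNA and snoRNA shares were above that of all nuclear genes, so a raised share was not limited to tRNA genes.

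A larger share of the X summits than of the autosomal summits lay at tRNA genes, which are also denser on X. X held 15.6 tRNA genes per Mb, against 4.07 per Mb on the autosomes. Of the 208 summits on X, 128 lay within 250 bp of a tRNA gene (61.5%, 54.6 to 68.2%), against 147 of 819 on the autosomes (17.9%, 15.4 to 20.8%). Per Mb this made 7.22 summits at tRNA genes on X and 1.78 on the autosomes. Away from tRNA genes there were 4.51 summits per Mb on X and 8.14 per Mb on the autosomes. In the conservative list and the replicates' own lists, described below, between 61.0% and 76.7% of the X summits lay at tRNA genes, against between 16.7% and 21.3% of the autosomal ones.

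**Figure D1:**
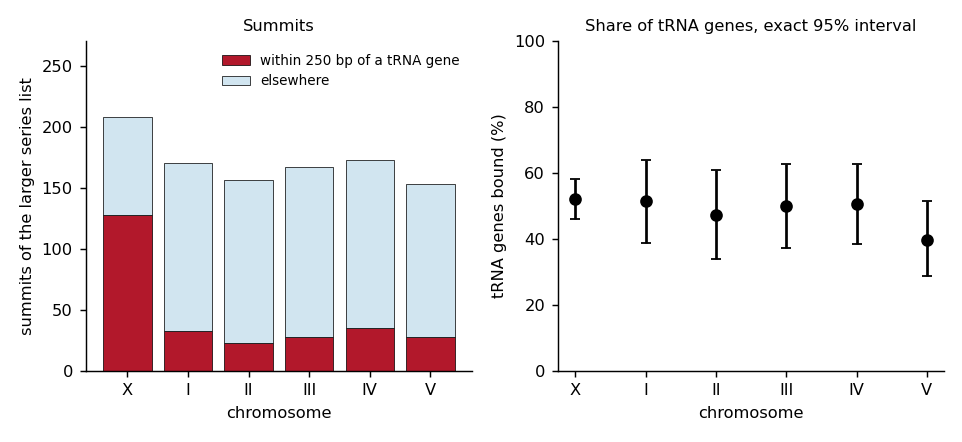
Left, number of summits of the larger series list on each chromosome, split into those within 250 bp of a tRNA gene and those elsewhere. Right, percentage of each chromosome's tRNA genes that were bound, with exact 95% intervals. On X 128 of 208 summits lie at tRNA genes, while its share of bound genes, 52.2%, has an interval that overlaps those of all 5 autosomes.

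The authors' peak signal has no stated scale and was used only to rank and describe peaks within a list. Bound X genes had series signals between 32.3 and 180.5 (median 81.2), and ranks between 48 and 13446 among the 115557 ranked candidate peaks, whose median signal was 18.6. Of the 132 genes not bound, 117 still had a candidate summit within 250 bp, with signals between 6.16 and 64.2 (median 41.1), and 108 of these lay above the median of all candidates. In total 261 of 276 X genes had a candidate (63.6% of all nuclear genes did). Other classes on X were also high, with 89.2% of coding genes and 28 of 33 snoRNA genes. Among the other short genes of X the share was 68.7%, and among piRNA genes of X 42.6%. Most X tRNA genes called not bound had a candidate above the median of all candidates. Each gene takes its strongest candidate within 250 bp, which favours values above a median of single candidates. The same share was not counted for other genes. The highest candidates of genes not bound overlapped the bound range: 24 bound genes lay below 64.2. The deposited -log10 of the irreproducible discovery rate (IDR, an estimate of how many peaks would not repeat) was between 2.01 and 4.58 for bound genes and at most 1.98 for the others, and the list was cut at 2.

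The lowest bound signal, 32.3, belonged to a peak shared by the Met genes C25F6.t2 and C25F6.t3, a pair named with its values already known. The highest signals without a call in the larger list were 64.2 at the divergent Pro genes C48C5.t1 and C48C5.t3, 62.5 at the Tyr gene R04D3.t4 and 61.2 at the Leu gene F08F1.t2, in an intron of spp-13. Their -log10 IDR was 1.79, 1.80 and 1.58. All 3 peaks lay below that list's limit of 2. In the conservative list the peak of the C48C5 genes and that of R04D3.t4 passed, with -log10 IDR of 2.68 and 2.10, and that of F08F1.t2 did not, with 1.83.

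The 12 strongest X peaks at tRNA genes covered 16 genes. The first lay between the divergent genes M02F4.t2 (Glu, WBGene00023111) and M02F4.t1 (Gly), which stand 116 bp apart. The series gave it 180.5, replicate 1 gave 93.8 and replicate 2 gave 93.2. The second lay between the divergent Ser genes C53C7.t2 and C53C7.t1, with 163.8 in the series, 82.8 in replicate 1 and 78.3 in replicate 2. In both pairs the summit lay upstream of both genes.

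Next came the tandem Ala genes F15G9.t1 and F15G9.t2, 86 bp apart in an intron of him-4, which encodes the matrix protein hemicentin. Their signals were 153 in the series, 67.7 in replicate 1 and 80.6 in replicate 2, and the summit lay between the genes. ZK563.t1 (Thr), in an intron of ZK563.2, had 153 in the series, 63.2 in replicate 1 and 84.7 in replicate 2, with its summit 15 bp into the gene. F41D9.t3 (Asn), in an intron of sulp-3, a gene of the sulfate transporter family, had 145, 55.1 and 93.5 in that order. C02B4.t2 (Tyr), in an intron of the nuclear hormone receptor gene nhr-17, had 144, 60.2 and 83.3. Each of these peaks was in both replicates' own lists.

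C28G1.t1 (Glu), which overlaps an exon of the coding gene C28G1.2, reached 143 in the series, 45.8 in replicate 1 and 88.1 in replicate 2. The Ala genes T07H6.t2 and F34H10.t1 had series signals of 135 and 128. The divergent Gly genes T10B10.t2 and T10B10.t1 shared a peak of 127, with 41.9 in replicate 1 and 79.5 in replicate 2, which was in replicate 2's own list alone. F17H10.t1 (Gly), in an intron of the sorting nexin gene snx-17, had 127, and C04A11.t1 (Leu) also had 127, with 45.9 in replicate 1 and 81.8 in replicate 2. Thus 5 of the 12 peaks lay in introns, 1 on an exon and 6 in intergenic sequence, and 11 of the 12 were in both replicates' own lists.

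The replicates' own lists were shorter than the series lists and differed in length. Replicate 1's list had a summit at 55 X genes (19.9%, against 1.33% of all nuclear genes) and replicate 2's at 90 (32.6%, against 1.87%). Both lists held 42 of the 276 genes, against 0.928% of all nuclear genes. The conservative series list, which held 1003 peaks to the larger list's 1027, gave 136 genes (3.14% of all nuclear genes were called there), of which 125 were among the 144 bound genes and 11 were not.

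Of the 144 bound genes, 42 were in both replicates' own lists, 13 in replicate 1's alone, 43 in replicate 2's alone and 46 in neither. On the autosomes the same counts were 37, 17, 61 and 45 of 160. Series signals were between 81.1 and 180.5 for the 42 genes in both lists (median 114) and between 48.9 and 89.6 for the 46 in neither (median 65.5). These ranges overlapped between 81.1 and 89.6. The series lists were made from both replicates, so a peak can enter them that entered neither replicate's own list.

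Over the 228 X genes with a candidate in both replicates' ranked lists, signals of the replicates were related (Spearman's rho 0.58 over 228 genes, 0.57 over the 203 distinct pairs of peaks). This is a description, since the genes share libraries and some share a peak. Replicate 2's signals were higher at 177 of the 228, and its candidates had a higher median over the whole genome, 14.4 against 11.95 in replicate 1. Among the 42 genes in both lists the ratio of replicate 2 to replicate 1 had a median of 1.16 and reached from 0.76 to 1.93. The lowest ratios were at C06G1.t1 (His, 48.2 in replicate 2 and 63.5 in replicate 1), R11.t1 (Tyr, 0.90) and T25B6.t2 (Thr, 0.93). The highest were at C28G1.t1 (Glu, 1.93), R04E5.t6 (Gly, 1.85) and C04A11.t1 (Leu, 1.78). All 6 were well above the candidates' medians in each replicate. So were all 42 genes they were picked from, with at least 36.3 in replicate 1 and 43.5 in replicate 2.

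**Figure D2:**
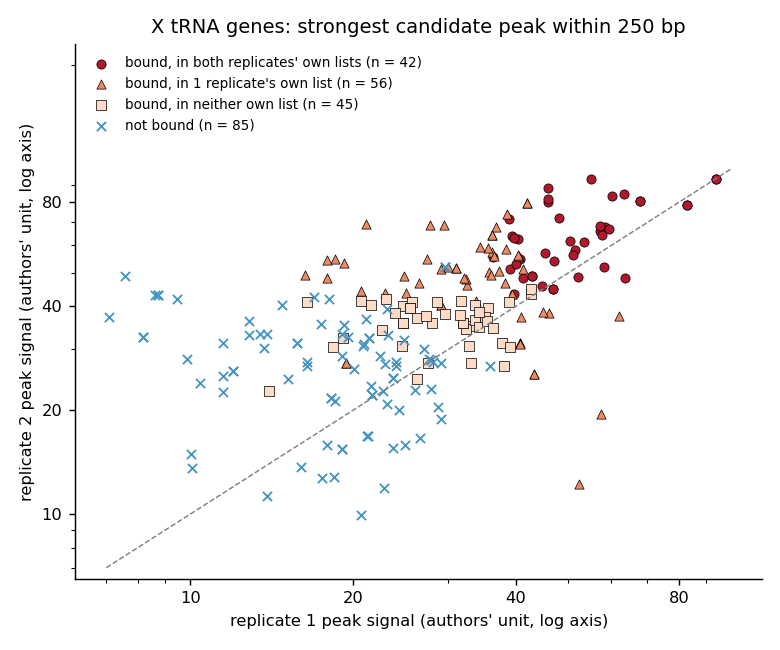
Strongest candidate peak within 250 bp of each X tRNA gene, replicate 2 signal against replicate 1 signal, both in the authors' unit on log axes, for the 228 genes with a candidate in both. Genes in both replicates' own lists lie towards the upper right, with at least 36.3 in replicate 1 and 43.5 in replicate 2; genes not bound reach at most 35.7 in replicate 1 and 52.1 in replicate 2. The dashed line marks equal values.

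Only 5 genes were in a replicate's own list but not in the larger series list, all in replicate 2's. They were C48C5.t1 and C48C5.t3 (Pro, 52.1 in replicate 2 and 29.6 in replicate 1), F19H6.t1 (Glu, 48.9 and 7.59), and F28H6.t2 and F28H6.t7 (His, 43.1 and 8.74). These 5, singled out for their values, stand at 3 peaks. At F19H6.t1 and at the His pair, replicate 1's signal was below the median of its candidates.

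By amino acid, each of the 20 isotypes had at least 1 bound gene on X, and for 11 of them more than 50% of the X genes were bound. In the larger groups Lys had 13 of 18 bound, Arg 15 of 27, Glu 12 of 23, Gln 9 of 15 and Ala 10 of 13. Their bound genes stood at 13, 13, 12, 5 and 9 peaks in that order. Smaller groups with a high share were Cys with 6 of 7 and Asn with 5 of 6, but their 6 and 5 genes stood at 4 peaks each. At the low end Phe had 1 of 6, His 2 of 9, Ile 5 of 13, and Gly and Pro 8 of 20 each. None of the 3 X genes whose amino acid the annotation leaves undetermined was bound (C28G1.t5, F47E1.t3 and K02D3.t1).

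Counts by isotype are small, and those on the autosomes did not follow the same order. Asn had 5 of 6 on X against 3 of 14 on the autosomes, and Ala 10 of 13 against 7 of 21. Tyr had 4 of 8 on X and 2 of 11 on the autosomes. In the other direction Phe had 1 of 6 on X and 5 of 8 on the autosomes. Cys was high in both places (6 of 7 and 5 of 6), and His low in both (2 of 9 and 2 of 11). Of the 9 His genes on X, 6 stand in 1 group, F28H6, where none was bound. Anticodons are not given by the annotation used here, so isotypes were not divided further.

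**Figure D3:**
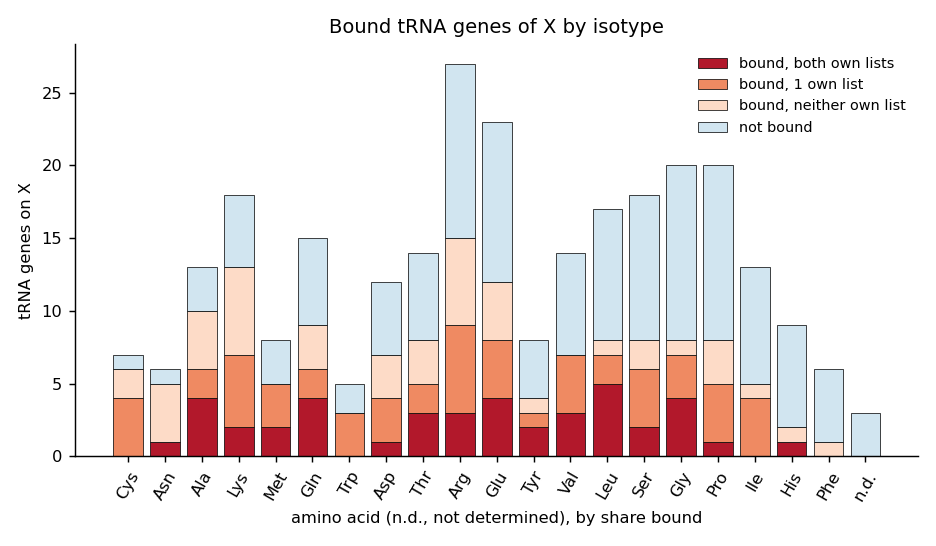
Number of X tRNA genes per amino acid, ordered by the share bound, split into bound genes by their presence in the replicates' own lists and genes not bound. Every amino acid has a bound gene, from 6 of 7 for Cys to 1 of 6 for Phe, and the 3 undetermined genes have none.

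The strongest gene of each isotype beyond those above had signals of intermediate rank. C33G3.t2 (Lys) had 123, with 57.7 in replicate 1 and 64.3 in replicate 2. R04D3.t2 (Val) had 118, C06G1.t1 (His) 115, C02B4.t1 (Ile) 111 and C02F12.t1 (Met) 108. T06H11.t2 (Arg) had 105, in an intron of the potassium channel gene unc-58, and F38G1.t2 (Asp) had 101, in an intron of egl-17, which encodes a fibroblast growth factor. Of these 7, only C02B4.t1 and T06H11.t2 were absent from replicate 1's own list, and none from replicate 2's.

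Lower still were rtw-5 (Trp) with 98.8, ZK899.t1 (Pro) with 92.7 and H08J11.t5 (Gln) with 88.3. T28B4.t1 (Phe), in an intron of fbxl-4, had 79.0, with 35.5 in replicate 1 and 39.5 in replicate 2. Neither own list held it. F42D1.t1 (Cys) had 70.2, with 17.9 in replicate 1 and 54.4 in replicate 2. Cys, Trp, Ile and Phe were the 4 isotypes with no X gene in both lists, although Cys had the highest share bound and Phe the lowest of the 20.

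The Trp genes include the X-linked suppressor loci, genes in which mutations that let the tRNA read the amber stop codon were found. They are described with their values known beforehand. The 4 genes sup-7, sup-21, sup-28 and sup-33 have the same sequence in the reference. Of these, sup-33 was bound with a signal of 95.2 and sup-7 with 91.5, both in replicate 2's own list alone. sup-21 had 53.9 and sup-28 had 50.6 and were not bound in the larger list, although sup-21 passed in the conservative list with a -log10 IDR of 2.05. sup-28 and sup-33 lie 856 bp apart in introns of trk-1, a receptor tyrosine kinase gene, and repeated 30-base words took up 30.6% of the region of sup-28 against 9.02% of that of sup-33. The part of repeats in the difference was not tested.

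Relative to coding genes, 95 X genes lay in introns of 67 hosts, 180 in intergenic sequence and 1 on an exon. In introns 56 of 95 were bound (58.9%, 48.4 to 68.9%) and in intergenic sequence 87 of 180 (48.3%, 40.8 to 55.9%). On the autosomes these shares were 47.3% of 188 and 48.2% of 139. The X intervals overlapped. On the host's strand 30 of 50 were bound (60%, 45.2 to 73.6%), and on the opposite strand 26 of 45 (57.8%, 42.2 to 72.3%).

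Of the 67 hosts, 16 held 2 or more tRNA genes. Both Ser genes in cat-1, which encodes the vesicular monoamine transporter, were bound, as were all 3 in tbc-12 and both in him-4. In ajm-1, of an apical junction protein, 4 of 5 were bound, and in K01A12.3 3 of 5. None of 3 was bound in wrt-9, of a Hedgehog-related protein, or in srxa-9, a chemoreceptor gene. These hosts were picked with their counts in view.

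X tRNA genes are often close together: 135 of 276 had another tRNA gene within 1000 bp, in 54 groups, of which 39 held 2 genes, 9 held 3 and 6 held 4 to 6. Of the genes in groups 63 of 135 were bound (46.7%, 38.0 to 55.4%), against 81 of the 141 genes standing alone (57.4%, 48.8 to 65.7%). On the autosomes the order was the other way, with 52 of 101 genes in groups (51.5%) and 46.0% of the genes alone. All genes were bound in 14 X groups, some in 22 and none in 18. With the nearest neighbour in the group divergent, 21 of 43 X genes were bound. With it convergent 15 of 29 were bound, and with it tandem 27 of 63 (42.9%), the lowest share. On the autosomes the counts were 21 of 49 divergent, 9 of 20 convergent and 22 of 32 tandem (68.8%), there the highest share.

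A fragment of up to 800 bp can cover several such genes, and a summit cannot be given to a gene when it lies between them. Of the 128 X summits at tRNA genes, 110 had 1 X tRNA gene within 250 bp, 17 had 2 and 1 had 3. Of the 18 with several, 10 lay inside one of the genes and 8 inside none. As a result 35 of the 144 bound genes shared their strongest summit with another, and 109 had it to themselves.

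Close divergent pairs could have a strong shared peak or none. The 3 closest pairs were Y7A5A.t4 with Y7A5A.t1 (Ser, 114 bp apart), M02F4.t2 with M02F4.t1 (116 bp) and R03E1.t2 with R03E1.t1 (Asp and Ser, 117 bp). The first had a candidate of 38.7 (18.2 in replicate 1 and 21.7 in replicate 2) and the third one of 47.5 (23.7 and 24.8), neither of which passed. The second had the strongest X peak. Repeated words took up between 18.1% and 21.2% of all 6 regions.

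Of the 6 largest groups, 5 held both bound and unbound genes. In the Gln group H08J11 in ajm-1, H08J11.t5 and H08J11.t1 shared a peak of 88.3 and H08J11.t2 and H08J11.t3 one of 87.6, all in both replicates' own lists, while H08J11.t4 between them had a candidate of 13.2 and its nearest series summit 338 bp away. In the group K01A12, the Cys genes K01A12.t5, K01A12.t4 and K01A12.t2 were called from 1 peak of 68.1 inside K01A12.t4, and the flanking Arg genes K01A12.t1 (25.2) and K01A12.t3 (49.4) were not bound. In the group F22F1, of Ser, Asp, Met and Ile genes, only F22F1.t7 (Ile, 85.9) of the 6 was bound, and the other 5 had candidates between 36.2 and 47.0. The T01B4 group holds 4 identical Val genes. T01B4.t2 (81.4) and T01B4.t4 (66.9) were bound, and T01B4.t1 (56.3) and T01B4.t3 (46.8) were not. T01B4.t2 had 29.9 in replicate 1 and 52.0 in replicate 2, whereas T01B4.t4 had 52.3 and 12.2.

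Neighbours with the same sequence could differ widely, as in the R11 group of 4 identical tandem Tyr genes. R11.t1, in both replicates' own lists, reached 114 in the series, 58.1 in replicate 1 and 52.0 in replicate 2. R11.t2 and R11.t3 had candidates of 10.3 and 12.3, below the median of all candidates, and R11.t4 had none. The neighbours R11.t1 and R11.t2 are 457 bp apart. Repeated 30-base words took up 12.4% of the region of R11.t1 and between 12.6% and 14.1% of the others. The genes differ in what precedes them. The 60 bases before each gene, along its strand, are given to show this (the gene begins after the last base).
R11.t1: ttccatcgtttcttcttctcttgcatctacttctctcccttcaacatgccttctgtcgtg
R11.t2: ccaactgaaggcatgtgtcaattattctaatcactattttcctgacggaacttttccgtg
R11.t3: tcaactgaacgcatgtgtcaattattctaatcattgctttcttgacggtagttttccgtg
R11.t4: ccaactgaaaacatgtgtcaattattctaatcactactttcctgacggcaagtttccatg
They come from chrX:16209853-16209912, chrX:16209312-16209371, chrX:16208909-16208968 and chrX:16208347-16208406, all on the minus strand. Between R11.t2, R11.t3 and R11.t4, from 50 to 53 of the 60 positions were identical, while R11.t1 matched each of the other 3 at 19 to 21. Whether the upstream sequence bears on the signal was not tested. The 2 other X copies of this Tyr sequence, C02B4.t2 (144) and F56F10.t1 (56.5), were bound.

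The His group F28H6 had 6 genes and none bound. F28H6.t2 and F28H6.t7 shared a candidate of 49.7 and F28H6.t5 had one of 38.3. F28H6.t3, F28H6.t6 and F28H6.t4 had no candidate. Their regions consisted almost wholly of repeated 30-base words, between 95.6% and 95.9%, against 21.9% for F28H6.t2, 51.4% for F28H6.t5 and 66.1% for F28H6.t7. The bound gene C06G1.t1, printed above, has the same sequence as these 6 and a repeated share of 10.9%. Over all X genes, none of the 10 with over 40% repeated words was bound (exact 95% interval up to 30.8%). These 10 include F28H6.t3, F28H6.t4, F28H6.t5, F28H6.t6 and F28H6.t7 of this group, so they are not 10 separate places. With up to 20% repeated words 126 of 227 were bound (55.5%), and 18 of 39 in between (46.2%). The autosomes had 0 of 17, 146 of 282 and 14 of 37. How the authors treated reads that match several places is not given in the sources used here, and the part of repeats in these counts was not tested.

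Copies of 1 sequence were often bound at some places and not at others. The 276 genes had 106 distinct sequences, and 57 genes had a sequence found at no other annotated nuclear tRNA gene. Of these single-copy genes 21 were bound (36.8%, 24.4 to 50.7%). Of genes with 2 to 5 copies among nuclear tRNA genes, 18 of 31 were bound (58.1%, 39.1 to 75.5%). The shares were 31 of 53 with 6 to 10 copies (58.5%, 44.1 to 71.9%) and 74 of 135 with over 10 (54.8%, 46.0 to 63.4%). The interval of the single-copy genes overlapped each of the others. On the autosomes the single-copy share was likewise the lowest of the 4, with 30 of 86 (34.9%), against 49.0%, 46.8% and 54.6%. Only 3 of the single-copy X genes were in both replicates' own lists, among them C04A11.t1. Of the 57, 37 had the B box core, and 12 of those were bound (32.4%). Of the 20 without it, 9 were bound. These 20 lack the searched letters and can have a B box of another spelling. Among genes with the core, the shares were 53.6% for 2 to 5 copies, 58.7% for 6 to 10 and 52.8% for over 10.

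On X 26 sequences had 4 or more copies, 186 genes in all, of which 103 were bound. In 24 of the 26 some copies were bound and others not, and in 2, of Asn and Gly, all were. The ratio of the highest to the lowest candidate signal within a family had a median of 3.59 and reached from 1.23 for the Cys genes to 14.0 for the Tyr genes. Copies with no candidate, such as F12D9.t6 of Cys and R11.t4 of Tyr, do not enter this ratio. The largest family, 13 Pro genes, had signals up to 92.7, with a median of 51.1, and 4 genes bound. The Glu family of M02F4.t2 had 12 genes between 18.5 and 180.5, with 4 bound. In the Arg family of T06H11.t2 8 of 10 were bound. In the Phe family only T28B4.t1 (79.0) of 5 identical genes was bound, and T27B1.t1, K05G3.t1, K08B5.t1 and T25D1.t2 had 48.9, 33.6, 30.1 and 15.2, the last with 74.8% repeated words. Copies that lie within 250 bp of 1 summit share its value.

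**Figure D4:**
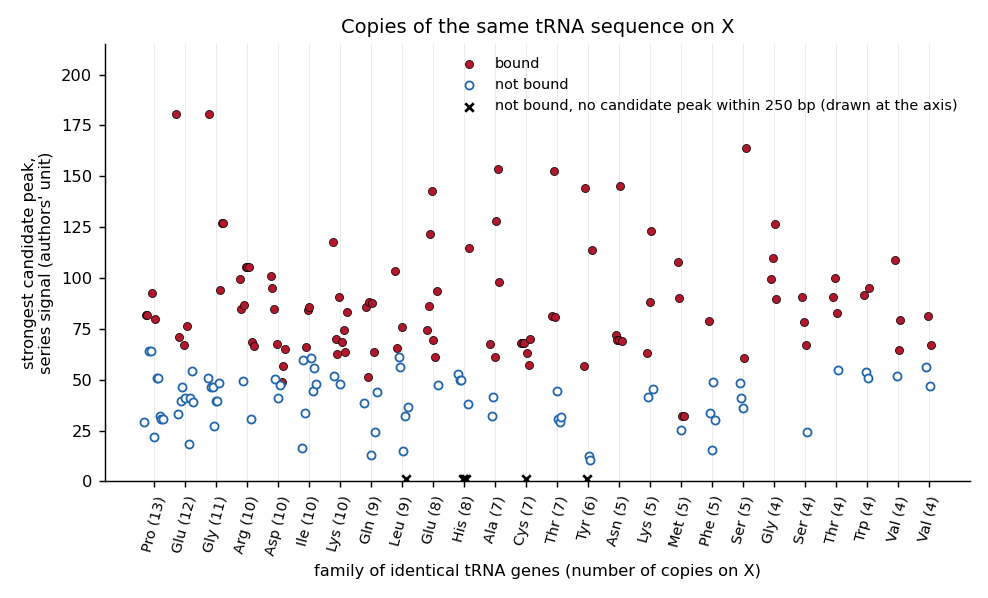
Signal of the strongest candidate peak of the larger series list, in the authors' unit, for each X gene of the 26 families of identical tRNA genes with 4 or more copies on X. Filled points are bound genes, open points are not, and crosses at the axis are genes with no candidate within 250 bp. In 24 families bound and unbound copies occur together, as in Tyr, where the signals run from 10.3 to 144.

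Closely related genes also differed. The long Leu genes C04A11.t1 and F02D10.t3, both 119 bp and each the only tRNA gene of its sequence, were identical at 108 of 119 positions. The series signal was 127 at C04A11.t1 and 48.8 at F02D10.t3, where replicate 1 gave 20.1 and replicate 2 gave 26.4. Both carry the cores of both boxes, as capitals show above.

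Most summits lay on the genes. Along the gene's strand, the strongest summit of a bound X gene had a median position of 15 bp after the gene's first base (quartiles -10.8 and 39.3 bp, n = 144), and the median gene length was 72 bp. It was inside the gene for 86 of 144 (59.7%), upstream for 47 and downstream for 11. On the autosomes the median was 14 bp, with 108 of 160 inside (67.5%). In the replicates' own lists the X median was 16 bp for each. Genes standing alone had summits between -44 and 108 bp, with 57 of 81 inside, and genes in groups had summits between -245 and 311 bp, with 29 of 63 inside. Where the searched letters were present, the A box core began at a median of base 8 and the B box core at base 53 of the gene.

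**Figure D5:**
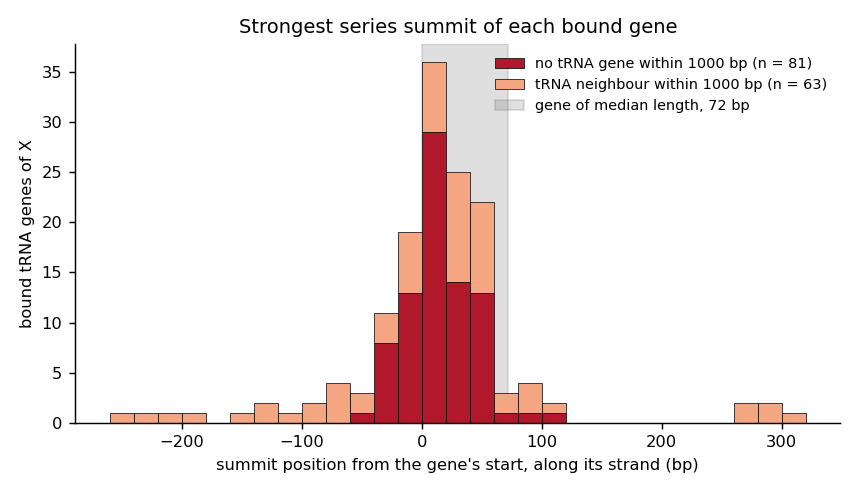
Position of the strongest series summit of each of the 144 bound X tRNA genes relative to the gene's start, along its strand, in bp (bins of 20 bp), for genes standing alone and genes with a tRNA neighbour. The shaded band is a gene of the median length, 72 bp. Summits gather just inside the start, with a median of 15 bp, and those far from it belong to genes with neighbours.

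At 500 bp instead of 250 bp, 157 genes were bound. Just inside it were K01A12.t2 (245 bp), F12D9.t5 (241 bp), T06H11.t3 (226 bp) and F46G11.t1 (221 bp), each in a group with another bound tRNA gene. Just outside were F22F1.t8 (287 bp), F12D9.t6 (293 bp), H08J11.t4 (338 bp) and C06G1.t4 (349 bp). All 8 stood in groups of tRNA genes.

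The searched letters of the internal promoter were about as frequent at bound as at unbound genes. In a window of 201 bp around the gene's middle (around the summit, for candidates away from genes), searched on both strands, the B box core GTTCGANNC occurred at 101 of 144 bound genes (70.1%), 99 of 132 genes not bound (75%) and 242 of 336 autosomal genes (72.0%). It occurred at 1.34% of 18939 X candidates away from tRNA genes that did not pass. The A box core was searched in a single spelling, TGGCNNAGT. It was found at 14 of 144 bound genes, 9 of 132 not bound and 1.64% of those candidates. Genes without either core can have another spelling, so these counts do not compare the A box or the B box as a whole. A run of TTTT within 50 bp after the gene was found at all but 3 of the 276 genes. The CUT-type word ATCGAT was found at 5 of 144 bound genes (3.47%), 2 of 132 not bound (1.52%) and 4.13% of the candidates. The related words ATCAAT and ATTAAT were found at 11 and 9 bound genes, 18 and 15 genes not bound, and 17.6% and 8.81% of the candidates. A match is a description of letters and no match says only that they are not in the window.

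Of tRNA pseudogenes, sequences annotated as decayed tRNA genes, 0 of 29 on X were bound in the larger series list and in both replicates' own lists (exact interval up to 11.9%). Of these, 19 had a candidate summit. On the autosomes 6 of 180 were bound (3.33%), and 128 had a candidate.

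Finally, 15 X genes had no candidate summit within 250 bp in the larger series list. Besides the 3 His genes and R11.t4 these were Y75D11A.t2 and F42G10.t1 (Arg), ZK154.t1 (Asn), F12D9.t6 (Cys), D1009.t1 and F47E1.t2 (Gln), C05C9.t1 (Leu), C31E10.t1 (Gly), M163.t1 (Lys), F52E10.t2 (Glu) and F47E1.t3 (undetermined). Of the 15, 9 were single-copy genes. D1009.t1 nevertheless passed in the conservative series list, with a signal of 58.1 and a summit 16 bp from the gene, and had a candidate of 36.7 in replicate 2 and none in replicate 1. F12D9.t6 and F47E1.t2 had candidates of 34.2 and 24.1 in replicate 1 alone.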

How the data were processed

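CEH-44 ChIP-seq peaks of 1 group with 2 biological replicates were used as the authors deposited them, on ce11 (per the labels). Each replicate had a ranked and a thresholded list, and both replicates entered 2 series lists, a larger and a conservative one, made with a control library among the inputs, per the deposited descriptions. The deposited peak signal is on an unstated scale, and the deposited −log10 IDR is at least 2 in thresholded lists. The aligner, the peak caller, the read depth and the treatment of reads matching several places are unknown here, and depth sets no interval on a signal. The 16 columns of per-input values in the series' ranked lists do not say which replicate they hold and were not used.

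Genes came from Ensembl release 115 (WBcel235, 22 mitochondrial tRNA genes left out). Isotypes, names, pseudogenes and sequence came from RefSeq. Each gene took its strongest summit within 250 bp. Groups joined genes at most 1000 bp apart. Copies are annotated nuclear tRNA genes of identical sequence, and the rest of the genome was not searched for whole copies. Repeated share is that of 30-base words, in the gene and 250 bp on each side, found more than once in the genome. Single genes were named as those at the 12 strongest X peaks, the strongest of each isotype, those in the largest groups and closest divergent pairs, the highest unbound ones, those with no candidate, those nearest the limit, and those with extreme replicate ratios. The rule for members used no measured value, but members, lists and words were chosen with earlier results of these data known. No test was run: there is 1 group, and genes are not replicates. Assignment was tested on simulated summits. Python 3.11.15, pandas 2.3.3 and scipy 1.17.1 were used. The alternatives tried were the conservative list, each replicate's own list, distances of 0, 100 and 500 bp, the stronger part of the list, overlap of peak and gene, each summit given to 1 gene, and other definitions of host, group and copy.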

Additional observations from a re-analysis of the deposited data

How the results depend on the processing

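The count of bound X genes, 144, was 136 with the conservative list, 132 at 100 bp, 157 at 500 bp, 133 by overlap of peak and gene, 127 with each summit given to its nearest tRNA gene, and 126 among genes with up to 20% repeated words, an alternative chosen after seeing the data. It was 87 with the summit inside the gene and 82 with the stronger part of the list. With 1 replicate's own list in place of the series list it was 55 to 90, the lower without replicate 2 and the higher without replicate 1. Likewise bound intronic genes (56) numbered 25 to 34, intergenic ones (87) 29 to 55, genes alone (81) 33 to 52, genes in groups (63) 22 to 38, and single-copy genes (21) 5 to 9. Amino acids with a bound gene numbered 18 to 20 throughout. With the summit inside the gene, 36 intronic and 50 intergenic genes were bound. Counting only introns on the gene's own strand left 30 intronic genes bound, by construction a part of the 56. When copies had to share 50 bp of flank, all 144 bound genes were single-copy. Only 2 X genes shared their sequence with such flanks, and neither was bound. Genes in both replicates' own lists, 42, numbered 38 at 100 bp, 45 at 500 bp and 25 with the summit inside the gene, the last chosen after seeing the data. The median summit position, 15 bp, was 15.5 bp in the conservative list, 16 bp at 500 bp, and 16 to 16 bp with either replicate left out. The other causes of these moves were not tested. Depth is unknown and limits what absence from a list means. No paired analysis was possible because there is 1 group and no comparison between groups.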

Other observations

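Bound genes were spread unevenly along X, a division chosen after seeing the data. Cut into 5 equal parts, X had 18 of 27 tRNA genes bound in the first (66.7%, exact 95% interval 46.0 to 83.5%), 23 of 30 in the second (76.7%, 57.7 to 90.1%), 42 of 89 in the third (47.2%, 36.5 to 58.1%), 42 of 74 in the fourth (56.8%, 44.7 to 68.2%) and 19 of 56 in the fifth (33.9%, 21.8 to 47.8%). The median candidate signal was 72.1 in the second part and 48.9 in the fifth. The interval of the second part did not overlap that of the fifth, but genes of 1 group share a peak, and no test was made. The fifth part holds the R11 and T01B4 groups and 4 of the 6 Phe genes.

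Sequences with copies both on X and on autosomes allow the same genes to be compared between the chromosomes. There were 43 such sequences. Of their 185 copies on X, 104 were bound (56.2%), and of their 223 autosomal copies, 122 (54.7%). For single families the counts differed in both directions, as for the Asn sequence with 5 of 5 on X and 3 of 13 on autosomes, and the Phe sequence with 1 of 5 and 3 of 5. These values are descriptions, with no test.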
